A study of Mus musculus with 16 samples.

Results

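MAP kinase feedback phosphatases and Sprouty genes were examined in the RNA-seq data of a gain-of-function experiment on the long noncoding RNA gene *Gm15551* in mouse brown adipocytes. The members were the genes of the deposited count table with the symbols *Dusp1*, *Dusp4*, *Dusp5*, *Dusp6*, *Dusp10*, *Dusp14*, *Spry1*, *Spry2*, *Spry4* and *Spred1*, which are 10 of the 54347 genes listed. All 10 passed the filter on low counts and were among the 13150 genes tested. The cells were wt1-SAM adipocytes, from brown preadipocytes that had been immortalized and made to express the CRISPRa SAM system (a dead Cas9 with activator proteins bound through the guide RNA). All 16 libraries came from this line. In all groups a cocktail of insulin, T3, dexamethasone, IBMX (a phosphodiesterase inhibitor, which raises cAMP), indomethacine and rosiglitazone started differentiation, followed by insulin with rosiglitazone and then by rosiglitazone alone. Plasmid (250 ng) was delivered by reverse transfection on day 4 of differentiation, and RNA was harvested on day 7. The 4 groups were empty sgRNA vector control, empty sgRNA vector with isoproterenol, sgRNA control and sgRNA with isoproterenol, where sgRNA stands for the plasmids pSgRNA-MS2-2 and -7 against *Gm15551* transfected together. Isoproterenol, a β-adrenergic agonist, was given at 1 µM for 24 h before harvest. Each group held the replicate numbers 3, 4, 5 and 6, so that n = 4 in every group. Nothing in the labels states that the numbers were separate cultures, so the p-values measure the spread between these samples.

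Dual-specificity phosphatases of this family remove the activating phosphates from MAP kinases, and many of their genes are themselves transcribed in response to MAP kinase activity, which closes a negative feedback loop. Sprouty and Spred proteins act further upstream, where they dampen the signal from receptor tyrosine kinases to Ras and Raf. In brown adipocytes, β-adrenergic receptors raise cAMP, which activates protein kinase A, and p38 and ERK MAP kinases are also engaged by this stimulus and take part in the control of thermogenic genes.

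Total counts per library ranged from 9053521 to 16546187. Nuclear ribosomal RNA genes took 11.7% to 51.8% of them, with 19.7% to 51.8% in empty vector libraries and 11.7% to 28.7% in sgRNA libraries. A count of 3, the limit that a count of 0 allows, corresponded to 0.166 to 0.390 CPM (counts relative to the TMM-scaled library size), and every member had at least 8 counts in every library. *Gm15551*, the targeted gene, was higher in sgRNA cells by 2.37 (SE 0.39, edgeR adjusted p 0.0989) on the log2 scale without the replicate number as a block and by 2.41 (SE 0.28, edgeR adjusted p 0.00055) with it. *Ucp1*, the uncoupling protein of brown fat, rose with isoproterenol with a log2 fold change of 4.03 (SE 0.37, edgeR adjusted p 7.36e-06). Summed CPM was 12508 to 27204 for 10 adipocyte markers, 8.38 to 95.7 for 8 preadipocyte and fibroblast markers, 6.44 to 22.5 for 5 macrophage and leukocyte markers, 3.28 to 34.1 for 4 smooth muscle markers and 1.42 to 3.15 for 4 endothelial markers. In bulk RNA, fewer cells of a type and less RNA per cell cannot be told apart.

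The most abundant members per length were *Dusp4* and *Dusp10*. *Dusp4* encodes an inducible nuclear phosphatase of ERK and JNK, and its level over the 16 libraries was 13.4 ± 2.83 CPM per kb of exon (SD). *Dusp10*, which encodes a phosphatase of JNK and p38, followed with 10.5 ± 1.47 CPM per kb. Lower and close together were *Spry4* with 5.88 ± 1.39, *Spry2* with 5.33 ± 0.558, *Dusp1* with 4.53 ± 1.24, *Spred1* with 3.81 ± 0.330 and *Dusp6* with 3.31 ± 0.998 CPM per kb. *Dusp5* reached 1.73 ± 0.510, *Dusp14* 1.02 ± 0.312 and *Spry1* 0.925 ± 0.230 CPM per kb. The ranges of *Dusp10* (8.57 to 14.1) and *Spry4* (3.64 to 8.19) did not meet, whereas all other neighbours in this order overlapped between libraries. Unscaled for length, the means ran from 1.98 CPM in *Dusp14* to 36.6 CPM in *Dusp4*. Libraries differed most in *Dusp5*, whose highest level was 3.74 times its lowest, and in *Dusp14* (3.72 times), and least in *Spred1* (1.33 times). The lowest values of *Dusp5* and *Dusp14* rested on 13 and 8 counts, both in replicate 5 of the empty vector. On GRCm38, *Dusp4* lies at chr8:34807297-34819894, *Dusp5* at chr19:53529109-53542431, *Dusp10* at chr1:184013302-184075636, *Spry1* at chr3:37639947-37644598 and *Spred1* at chr2:117121374-117182279, all on the plus strand. *Dusp14* at chr11:84048041-84069261 and *Spry2* at chr14:105891947-105896819 lie on the minus strand, and all 10 members are annotated as protein-coding.

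**Figure D1:**
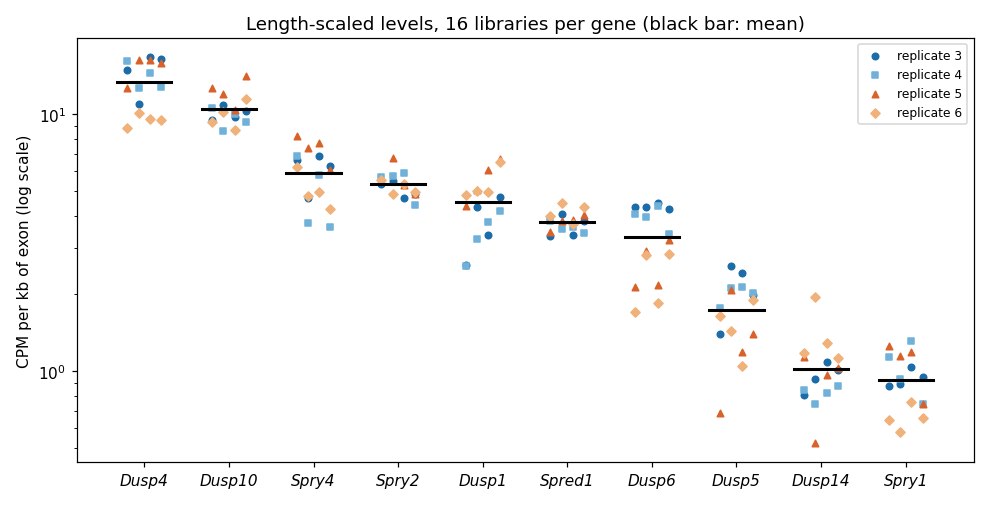
Level of each member in CPM per kb of exon on a log axis, with 1 point for each of 16 libraries, shaped and coloured by replicate number, and a bar for the mean. *Dusp4* (13.4) and *Dusp10* (10.5) lie at the top, and *Dusp14* (1.02) and *Spry1* (0.925) at the bottom.

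To see how 24 h of β-adrenergic stimulation moved these genes, control and isoproterenol libraries were compared with the effect averaged over both plasmids. Earlier times were not sampled, so a change that had ended by 24 h would not be seen. None of the 10 members passed the call, for which the adjusted p had to be under 0.05 and the log2 fold change beyond 0.5 in either direction. Of all 13150 genes tested, 2.65% were called by edgeR with its quasi-likelihood test. At an unadjusted p under 0.05 there was 1 member, *Spry4*, as against 17.7% of all genes, and DESeq2 likewise called 0 members (3.54% of all genes) and had 1 at an unadjusted p under 0.05 (18.6% of all genes). With the replicate number as a block, 0 members were again called against 5.70% of all genes, and 4 members had an unadjusted p under 0.05 (*Dusp1*, *Dusp5*, *Spry1* and *Spry4*), near the 33.5% of all genes at that level. By the adjusted p alone, 2 members passed in the fit with the block, *Dusp1* with a higher and *Spry4* with a lower level in stimulated cells. The share of all genes that passed this looser rule was 21.3%, close to the share of members. The estimates of 6 members were above 0 and those of 4 below it, with a median of 0.06 over the members and 0.0047 over all genes. The median size of the log2 fold change irrespective of sign was 0.12 in the members and 0.14 in all genes.

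**Figure D2:**
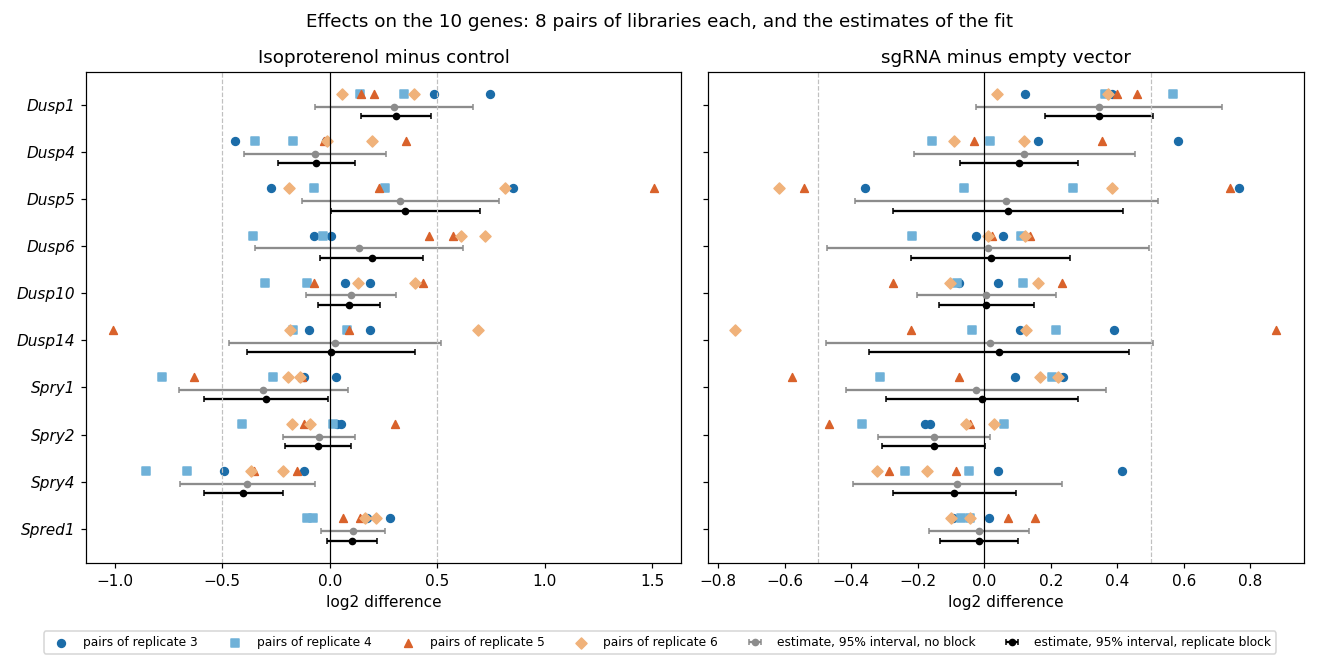
Log2 differences of each member for isoproterenol minus control (left) and sgRNA minus empty vector (right), with 8 pairs of libraries of the same replicate number and the edgeR estimates with 95% intervals without (grey) and with (black) the replicate block. Dashed lines mark the bound of 0.5. All 8 isoproterenol pairs lie above 0 in *Dusp1* and below 0 in *Spry4*.

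*Dusp1* encodes a nuclear phosphatase of p38, JNK and ERK and is known as an immediate early gene. The gene (ENSMUSG00000024190.7) lies on the minus strand of GRCm38 at chr17:26505590-26562128. In empty vector control libraries of replicates 3, 4, 5 and 6 it was at 8.55, 8.47, 14.5 and 15.99 CPM, and in the stimulated empty vector libraries at 14.4, 10.8, 16.8 and 16.7 CPM. The sgRNA control libraries held 11.2, 12.6, 20.1 and 16.4 CPM and the stimulated sgRNA libraries 15.7, 13.9, 22.2 and 21.6 CPM. The groups overlapped, but within each plasmid and replicate number the stimulated library was the higher in 8 of 8 pairs, by 0.06 to 0.75 on the log2 scale. The share of all genes with 8 of 8 pairs in the same direction is not given here. Counts of pairs, for this and the other members, are therefore not read as particular to them. Without the block the log2 fold change was 0.30 (SE 0.17, 95% interval -0.07 to 0.67) and the edgeR adjusted p was 0.407. The block lowered the error and gave 0.31 (SE 0.08, 95% interval 0.15 to 0.47) with an edgeR adjusted p of 0.00942, a 1.24-fold higher level in stimulated cells. Without replicate 3, which had the largest differences, this estimate was 0.21 with an adjusted p of 0.0763, and it passed in the other 19 of 20 fits that left out a library or a replicate number. Reads of *Dusp1* and *Ergic1*, a gene of the opposite strand with 11 exonic bases in common, cannot be told apart in that stretch, since the use of read strand was not stated. *Ergic1* had 751 to 1794 counts per library, against 112 to 306 in *Dusp1*.

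The promoter of *Dusp1* is shown because it was the member with a match to the cAMP response element (CRE) in full. RefSeq promoter windows of GRCm38.p6 were found for 8 of the 10 members, not for *Dusp4* and *Spry4*, and the 250 bases before the start site were searched on both strands. The full CRE, TGACGTCA, occurred in 1.55% of 32851 promoter windows and in 1 of 8 members. Its core, TGACG, which is part of the full CRE, occurred in 17.8% of windows and in 2 members, *Dusp1* and *Dusp5*. The CArG box, the sequence bound by serum response factor, was found in 1.47% of windows and in *Dusp5*. The letters CCGGAAGT of ETS factors (2.88% of windows) and TGAATGAA of the repressor Capicua (1.08%) were in 0 of 8 member windows, which says only that these letters were not in this stretch. Sequences are given 5′ to 3′ along the gene, with CRE cores and CArG boxes in capitals, for *Dusp1* at chr17:26508596-26508683 on the minus strand and *Dusp5* at chr19:53529043-53529106 on the plus strand.
Dusp1: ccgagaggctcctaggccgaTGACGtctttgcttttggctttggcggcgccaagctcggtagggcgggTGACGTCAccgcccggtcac
Dusp5: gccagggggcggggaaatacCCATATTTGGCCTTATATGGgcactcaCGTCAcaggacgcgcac
In *Dusp1* the full CRE lay 143 to 136 bases before the start site and a further core 191 to 187 bases before it. The RefSeq start of *Dusp1*, at 26508472, lies within the span that GENCODE gives the gene, since 3 of its 6 transcripts there start within 50 bases of that position and 2 start far upstream, the outermost at 26562128. The window of *Dusp10* likewise belongs to a RefSeq start 21079 bases downstream of the outermost GENCODE start. For *Spred1*, 0 of 2 GENCODE transcripts start within 50 bases of the RefSeq start at 117121071, and the outermost starts at 117121374. In *Dusp5* 2 CArG boxes stood side by side from 82 to 63 bases before the start site, and a core on the opposite strand lay at 55 to 51 bases.

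*Spry4* was the member with the smallest p in the isoproterenol comparison. It encodes an inhibitor of receptor tyrosine kinase signalling to Ras and Raf and lies on the minus strand at chr18:38586247-38601415 (ENSMUSG00000024427.7). Replicates 3, 4, 5 and 6 were at 31.6, 32.5, 39.0 and 29.6 CPM in empty vector control libraries and at 22.4, 17.9, 35.0 and 22.9 CPM after stimulation. In sgRNA cells they were at 32.5, 27.5, 36.7 and 23.6 CPM in control and at 29.9, 17.3, 28.7 and 20.3 CPM in stimulated libraries. Here too the groups overlapped, while within each plasmid and replicate number the stimulated library was the lower in 8 of 8 pairs, by 0.12 to 0.86 on the log2 scale. The log2 fold change was -0.38 (SE 0.15, 95% interval -0.70 to -0.07) without the block, and its edgeR adjusted p was 0.174. With the block it was -0.40 (SE 0.09, 95% interval -0.59 to -0.22) with an adjusted p of 0.00359, a level 24.4% lower in stimulated cells and still within the bound of 0.5. Replicate 4 had the largest differences, and without it the estimate was -0.28 with an adjusted p of 0.0572. The other 19 of 20 such fits passed.

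*Dusp5*, a nuclear phosphatase selective for ERK, had the largest estimate above 0 but also a wide spread. In empty vector cells it was at 3.43, 4.34, 1.69 and 4.05 CPM in control and at 6.31, 5.20, 5.09 and 3.53 CPM in stimulated libraries. In sgRNA cells it was at 5.95, 5.25, 2.92 and 2.58 CPM in control and at 4.89, 4.98, 3.44 and 4.66 CPM in stimulated libraries. The stimulated library was the higher in 5 of 8 pairs, and the log2 fold change was 0.33 (SE 0.22, edgeR adjusted p 0.477), or 0.35 (SE 0.16, adjusted p 0.145) with the block. An antisense gene, *AC137853.2*, overlaps 547 exonic bases of *Dusp5*, and it had 0 to 4 counts per library. *Dusp4*, *Dusp10* and *Dusp14*, the last a small atypical phosphatase that lacks the kinase-binding domain of the others, were at 24.2 to 45.6, 26.1 to 42.8 and 1.02 to 3.79 CPM over all libraries. Their isoproterenol estimates were -0.07, 0.10 and 0.02 on the log2 scale. With the block, the 95% intervals of these were -0.24 to 0.11, -0.05 to 0.23 and -0.39 to 0.40, which all lay within the bound of 0.5. Without it they were -0.40 to 0.26, -0.11 to 0.31 and -0.47 to 0.52, and that of *Dusp14* reached past the bound.

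Among the genes of upstream inhibitors, *Spry1* was lower in the stimulated library in 7 of 8 pairs. It was at 2.53, 3.28, 3.64 and 1.87 CPM in empty vector control libraries, at 2.58, 2.71, 3.31 and 1.68 CPM after stimulation, at 3.01, 3.80, 3.44 and 2.20 CPM in sgRNA control libraries and at 2.75, 2.15, 2.16 and 1.91 CPM in stimulated sgRNA libraries. Its log2 fold change of -0.31 (SE 0.19, edgeR adjusted p 0.426) did not pass, nor did that of -0.30 (SE 0.14, adjusted p 0.136) with the block. *Gm42922*, on the opposite strand, overlaps 710 exonic bases of *Spry1* and had 0 to 4 counts. *Spry2*, whose protein binds the ubiquitin ligase Cbl, was at 9.22 to 14.1 CPM over all libraries with an isoproterenol estimate of -0.05 (SE 0.08, 95% interval -0.22 to 0.12). *Spred1* encodes an inhibitor that brings the Ras regulator neurofibromin to the membrane. It was the steadiest member, at 22.8 to 30.4 CPM, and its estimate of 0.11 (SE 0.07, 95% interval -0.04 to 0.26) lay within the bound of 0.5.

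**Figure D3:**
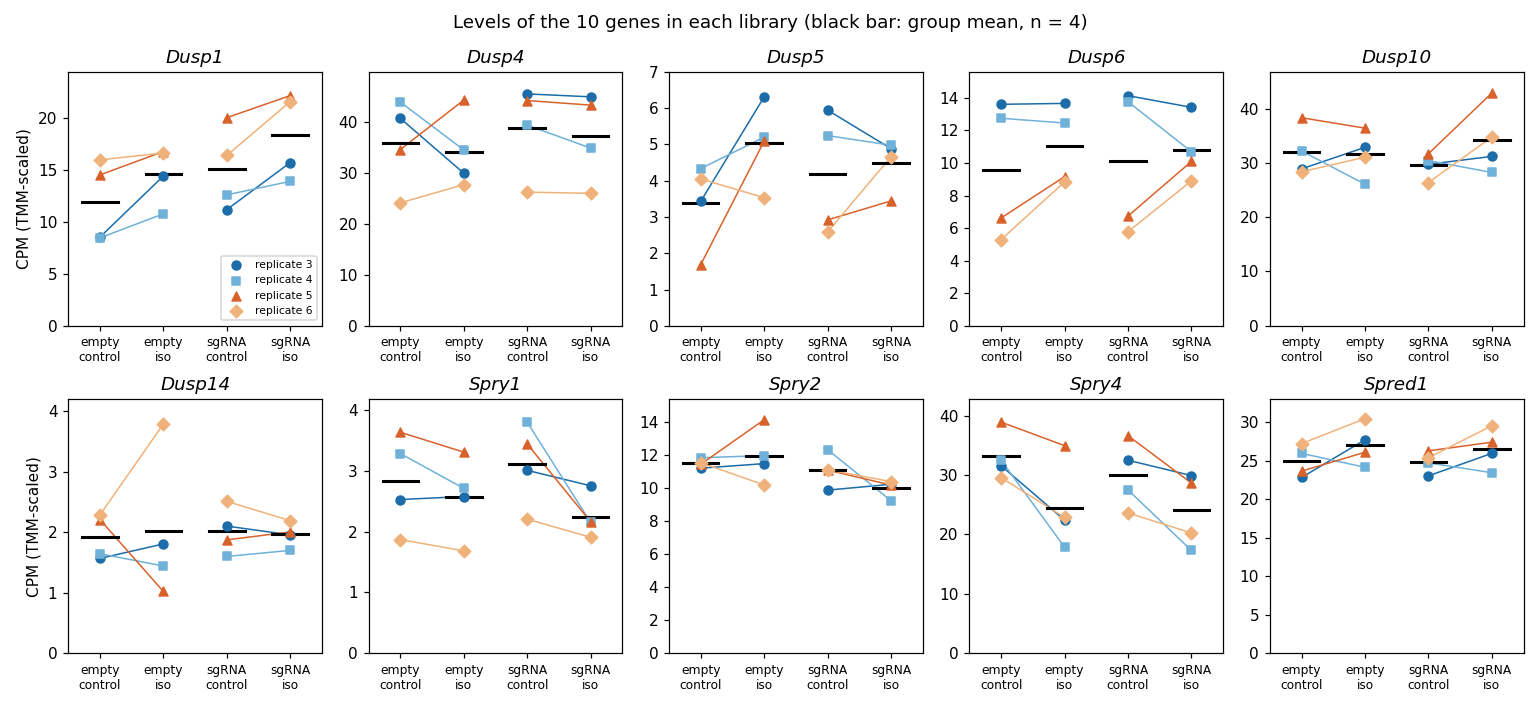
TMM-scaled CPM of each member in the 16 libraries by group, where lines join control and isoproterenol libraries of the same plasmid and replicate number and black bars are group means (n = 4). In *Dusp1* every line runs upwards and in *Spry4* every line runs downwards, whereas *Dusp6* splits by replicate number, with 12.7 CPM or more in control libraries of replicates 3 and 4 and 6.74 CPM or less in those of 5 and 6.

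Other transcripts moved with isoproterenol in the same libraries. Of 10 adipocyte markers, 1 rose (*Ucp1*) and 3 fell by the call without the block (*Adipoq*, *Cidec* and *Lipe*), while 2 rose and 5 fell with it, where *Cidea* was added above 0 and *Plin1* and *Cebpa* below it. Their estimates were below 0 in 8 of 10, with a median of -0.44, and their summed level was lower in the stimulated library in 8 of 8 pairs, with 16406 to 27204 CPM in control and 12508 to 23753 CPM in stimulated libraries. Of 4 preadipocyte and fibroblast markers tested, *Ly6a* rose with the block only, and the summed level of all 8 was higher in the stimulated library in 8 of 8 pairs. *Cd68* rose by 0.91 (log2, edgeR adjusted p 0.00518) and was the 1 gene tested of the 5 macrophage and leukocyte markers, of which 2 to 4 had any count in a library and whose summed level was also higher in 8 of 8 pairs. All 3 smooth muscle markers tested fell with the block only (log2 fold changes of -0.85 to -0.61 without it). The part of these in the values of *Dusp1* and *Spry4* was not tested.

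Within each plasmid, isoproterenol again gave 0 called members. In empty vector cells 0.829% of all genes were called without the block and 4.47% with it, and 0 and 3 members had an unadjusted p under 0.05, as against 10.1% and 23.7% of all genes. In sgRNA cells the corresponding shares of called genes were 0.700% and 3.90%, with 0 and 3 members and 8.46% and 21.7% of all genes at an unadjusted p under 0.05. DESeq2 called 0 members in either comparison, against 1.70% and 1.35% of all genes, and had 0 at an unadjusted p under 0.05, against 10.6% and 9.20%. The estimates for *Spry4* were -0.44 (SE 0.21) in empty vector cells and -0.33 (SE 0.21) in sgRNA cells, and those for *Dusp1* 0.31 (SE 0.25) and 0.28 (SE 0.24). With the block and by the adjusted p alone, 1 member passed in empty vector cells, *Spry4* with -0.47 (SE 0.12, edgeR adjusted p 0.0256), and 0 passed in sgRNA cells, where *Spry4* had -0.34 (SE 0.12, adjusted p 0.106). Of all genes 9.57% and 8.40% passed this rule in empty vector and sgRNA cells. *Dusp5* had 0.55 (SE 0.31) in empty vector and 0.11 (SE 0.30) in sgRNA cells, and *Spry1* -0.14 (SE 0.26) and -0.48 (SE 0.26). Whether the isoproterenol effect differed between plasmids was tested by the interaction, for which 0 members and 0% of all genes were called by edgeR without and with the block and by DESeq2. At an unadjusted p under 0.05 there were 0 members in each of these, beside 0.395%, 1.51% and 0.350% of all genes, so that 0 of 10 was near the background. The largest interaction estimates were -0.44 (SE 0.43) in *Dusp5*, -0.33 (SE 0.37) in *Spry1* and 0.23 (SE 0.20) in *Dusp10*. With a library or replicate number left out, these ran from -0.86 to -0.15, -0.50 to -0.18 and 0.10 to 0.34. That of *Dusp14* then ran from -0.45 to 0.37, so the order was not stable.

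The effect of the sgRNA plasmids was addressed by comparing sgRNA with empty vector libraries. Averaged over both treatments, 0 members and 0% of all genes were called without the block, and 0 members and 0.266% of all genes with it. By the adjusted p alone with the block, 0.586% of genes passed and again 0 members. DESeq2 called 0 members and 0.0760% of all genes. Without the block 0 members had an unadjusted p under 0.05 in edgeR or DESeq2, beside 3.32% and 3.45% of all genes, and with the block there was 1, *Dusp1*, against 11.5% of all genes. The level of *Dusp1* in the sgRNA library exceeded that of its empty vector counterpart in 8 of 8 pairs, by 0.04 to 0.57 on the log2 scale. With CPM taken from totals without ribosomal RNA genes and no TMM scaling, it was higher in 7 of 8, the exception being replicate 6 of the control cells with 23.6 and 23.5 CPM. Its log2 fold change was 0.34 (SE 0.17, 95% interval -0.02 to 0.71) without the block and 0.35 (SE 0.08, 95% interval 0.18 to 0.51) with it, where the edgeR adjusted p of 0.0594 missed the threshold and the unadjusted p was 0.000402. In 2 of 20 fits with the block that left out a library or a replicate number it passed, those without replicate 3 of the stimulated empty vector and without replicate 6 of the empty vector control. The share of ribosomal RNA counts, given above, was on the whole lower in the sgRNA libraries. The summed preadipocyte and fibroblast markers were lower in the sgRNA library in 8 of 8 pairs (13.5 to 95.7 CPM in empty vector and 8.38 to 70.2 CPM in sgRNA libraries) and the summed macrophage and leukocyte markers in 7 of 8. With the block, *Cidea* of the 10 adipocyte markers was called higher in sgRNA cells (log2 fold change 1.05, edgeR adjusted p 0.0348) and *Ly6a* of the 4 preadipocyte and fibroblast markers tested was called lower (-0.74, adjusted p 0.00491), where 2 of the 4 estimates were above 0 and 2 below it. The part of these and of the ribosomal RNA in the values of *Dusp1* was not tested. All other members had estimates between -0.15 in *Spry2* and 0.12 in *Dusp4*.

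In control cells alone, 0% of genes were called for the sgRNA without the block and 0.0304% with it, and 0 and 1 members had an unadjusted p under 0.05, against 1.48% and 5.73% of all genes. In stimulated cells 0% and 0.122% of genes were called, with 1 and 2 members and 1.49% and 7.29% of all genes at an unadjusted p under 0.05. No member was called in either, also by DESeq2, which called 0.0228% and 0.0304% of all genes and had 0 members at an unadjusted p under 0.05, beside 1.48% and 1.51% of all genes. The member at that level in stimulated cells without the block was *Spry2*, joined by *Dusp1* with the block. *Spry2* was at 11.5, 11.95, 14.1 and 10.2 CPM in empty vector and 10.2, 9.22, 10.2 and 10.4 CPM in sgRNA libraries. Its log2 fold change there was -0.25 (SE 0.11, unadjusted p 0.0394, edgeR adjusted p 0.9996). The sgRNA comparisons within control and within stimulated cells use the same libraries as the isoproterenol comparisons, so they are not independent of those.

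Replicate number, with 3 degrees of freedom against 1 for each factor of the design, took the largest median share of the variation in the members, with *Spry2* (11.9%, below its share for the sgRNA) as the exception among them. The share of the sum of squares of log2 CPM explained by replicate number had a median of 51.6% over the members and 46.8% over all genes tested. Isoproterenol explained a median of 11.1% in the members and 6.79% in all genes, and the sgRNA 1.04% and 2.38%. The largest share for isoproterenol was that of *Spry4* with 33.7%, and the largest for the sgRNA that of *Spry2* with 28.1%. In a test of the replicate term with 3 degrees of freedom, added after the data were seen, 6 of 10 members had an adjusted p under 0.05 (*Dusp1*, *Dusp4*, *Dusp6*, *Dusp10*, *Spry1* and *Spry4*), against a background of 54.7% of all genes. The 6 of 10 lay close to that background.

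*Dusp6*, a cytoplasmic phosphatase selective for ERK that lies at chr10:99263231-99267489 on the plus strand (ENSMUSG00000019960.8), had the largest share for replicate number, 76.3%. In control libraries of replicates 3, 4, 5 and 6 it was at 13.6, 12.7, 6.62 and 5.30 CPM with the empty vector and at 14.1, 13.8, 6.74 and 5.78 CPM with the sgRNA. Replicates 3 and 4 thus lay apart from 5 and 6 with either plasmid. In stimulated libraries it was at 13.7, 12.5, 9.16 and 8.83 CPM with the empty vector and at 13.4, 10.7, 10.1 and 8.90 CPM with the sgRNA, so that the gap was narrower. The isoproterenol effect was -0.03, -0.20, 0.52 and 0.67 on the log2 scale in replicates 3, 4, 5 and 6. Averaged over plasmids, the log2 fold change of the fits was 0.14 (SE 0.23, edgeR adjusted p 0.824) without the block and 0.19 (SE 0.11, adjusted p 0.245) with it. A test of whether the isoproterenol effect differed between replicate numbers, also added after the data were seen, gave *Dusp6* an unadjusted p of 0.000909, the rank of 16 among 13150 genes, and an adjusted p of 0.640. It passed in 0 members and 0% of all genes, while 2 members (*Dusp6* and *Dusp10*) and 7.10% of genes had an unadjusted p under 0.05. The pattern did not pass the threshold, and DESeq2 was not run on it.

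Other members followed replicate number in other ways. *Dusp1* had means of 12.5 and 11.5 CPM in replicates 3 and 4 and of 18.4 and 17.7 CPM in replicates 5 and 6, opposite to *Dusp6*. *Dusp4* was at 24.2 to 27.8 CPM in the 4 libraries of replicate 6 and at 30.0 to 45.6 CPM in all others, and *Spry1* had its lowest mean there too, 1.92 CPM. *Dusp14* did not pass the test of the replicate term (adjusted p 0.0737). Its mean was highest in replicate 6, 2.69 CPM, but the libraries there (2.19 to 3.79 CPM) overlapped those of replicate 5 (1.02 to 2.21 CPM). Replicate 6 also had the highest summed smooth muscle markers (19.2 to 34.1 CPM, against 3.28 to 13.0 in the other numbers), the highest summed preadipocyte and fibroblast markers within each group (44.0 to 95.7 CPM over the 4 groups, against 8.38 to 66.7 in the other numbers) and summed adipocyte markers of 12508 to 20086 CPM, against 16429 to 27204 in the others. Their part in the levels of these members was not tested. Across the 16 libraries, which share replicate numbers and treatments, the highest correlations of log2 CPM between members were those of *Dusp4* with *Spry1* (r = 0.69) and *Dusp5* with *Dusp6* (r = 0.67). After group and replicate means were removed they were 0.10 and 0.23, and *Dusp4* with *Spry4* (r = 0.76) and *Dusp6* with *Dusp10* (r = 0.73) were then the highest above 0 of the 45 pairs. The correlation farthest from 0 was then that of *Dusp14* with *Spry2* (r = -0.81, and -0.58 before).

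**Figure D4:**
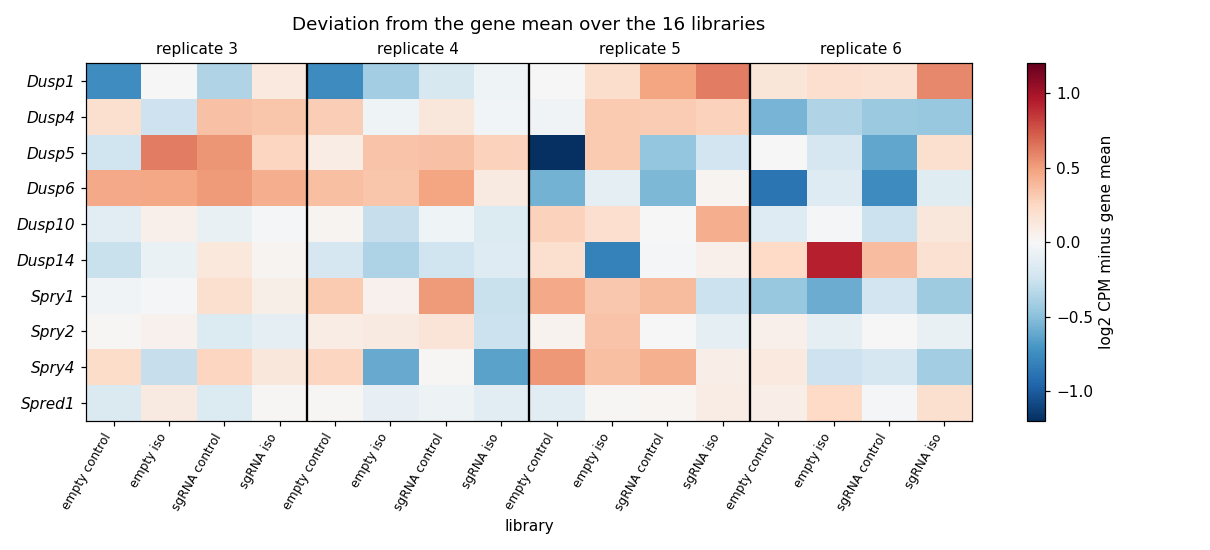
Deviation of log2 CPM from the mean of each gene over the 16 libraries, in colour from -1.2 to 1.2, with libraries ordered by replicate number. Replicates 3 and 4 are above the mean in *Dusp6* and mostly below it in *Dusp1*, and *Dusp4* is below its mean throughout replicate 6.

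The other genes of the pathway were described by role, with the averaged isoproterenol effect. Of the other dual-specificity MAP kinase phosphatases 0 of 4 tested were called, with log2 fold changes of -0.15 to 0.13, and of the other Sprouty and Spred genes 0 of 2, with 0.07 and 0.12. Of 9 further inhibitors of growth factor signalling 0 were called, with -0.41 to 0.20. Among growth factor ligands 3 of 14 rose and 2 fell without and with the block, with edgeR adjusted p of 0.0268 or less. *Fgf7*, a fibroblast growth factor for epithelial cells, rose by 1.49 (SE 0.36), *Ereg*, a ligand of the EGF receptor, by 0.69 (SE 0.15) and *Fgf21*, a hormone secreted by liver and brown fat, by 0.67 (SE 0.11). *Igf1*, the growth factor that activates the IGF receptor, fell by 1.37 (SE 0.19), and *Fgf2*, basic fibroblast growth factor, fell by 1.06 (SE 0.17).

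Among receptor tyrosine kinases 1 of 10 fell, *Fgfr1* with a log2 fold change of -0.53 (SE 0.12, edgeR adjusted p 0.0227), and *Fgfr2* with -0.56 (SE 0.16) passed with the block only. Of 13 adaptors and Ras proteins 0 were called, with -0.47 to 0.22. The smallest adjusted p there was 0.0288 in *Rras*, a Ras-related GTPase, whose log2 fold change of -0.47 lay within the bound. Of 10 Raf, MEK and ERK kinases 1 rose, *Ksr1*, a scaffold of this cascade, by 0.64 (SE 0.17, edgeR adjusted p 0.0444). *Mapk3*, which encodes an ERK kinase, had a log2 fold change of -0.15 (SE 0.10), and the genes of MEK, *Map2k1* and *Map2k2*, had 0.11 (SE 0.10) and -0.19 (SE 0.15). Of 9 JNK and p38 kinases 0 were called, with -0.22 to 0.50.

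Of 11 transcripts known to follow ERK activity 2 rose, *Fosl1*, a Fos family transcription factor, by 1.10 (SE 0.21, edgeR adjusted p 0.00611) and *Ier3*, an immediate early gene, by 0.68 (SE 0.16, edgeR adjusted p 0.0209), and the median of this list was 0.08. Of 10 cAMP and CREB response genes 6 rose without the block and 7 with it, all 10 had estimates above 0, and the median was 1.05. Beside *Ucp1*, the largest were *Nr4a3* with 2.90 (SE 0.57) and *Nr4a1* with 2.24 (SE 0.22), both orphan nuclear receptors, and *Pde4d*, a cAMP phosphodiesterase, with 1.35 (SE 0.13). The genes of the cAMP list were chosen for their known response to such a stimulus. The member median of 0.06 lay near that of the ERK list, but about as near that of the adaptors and Ras proteins (0.04). The members and the ERK list both held estimates above and below 0, so these medians do not assign the members to a list. For the sgRNA effect 0 genes of these lists were called without the block, and with it 1, *Ereg*, was lower in sgRNA cells with -0.60 (SE 0.12, edgeR adjusted p 0.0348).

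**Figure D5:**
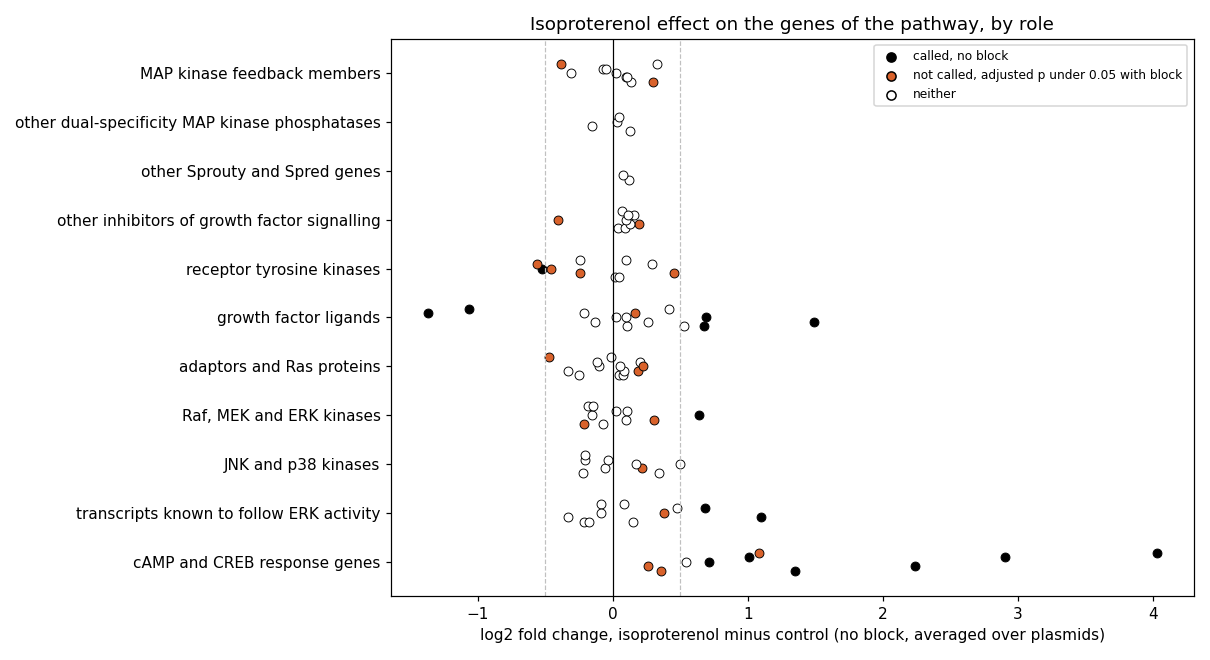
Log2 fold change of each tested gene for isoproterenol minus control, averaged over plasmids without the replicate block, by list. Filled black points were called, orange points were not called but had an adjusted p under 0.05 with the block, and open points neither. Dashed lines mark the bound of 0.5. The 10 members lie between -0.38 and 0.33, whereas the cAMP and CREB response genes reach 4.03.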

How the data were processed

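Per the labels and the study's methods, polyadenylated RNA was sequenced in paired ends, and the authors trimmed by quality with cutadapt and estimated abundances by salmon on the GENCODE M22 transcripts (GRCm38). The deposited estimated counts per gene were whole numbers, not normalized, with low genes kept. Versions of these tools and strand use were not given in the sources used here. Groups and replicate numbers came from the sample titles, and all 16 libraries were used. In R 4.3.3, edgeR 4.0.16 kept genes by filterByExpr (minimum count 10, minimum total 15), scaled libraries by TMM and fitted the 4 group means by glmQLFit. For 7 contrasts glmQLFTest gave two-sided p-values, adjusted by Benjamini-Hochberg across 13150 genes. DESeq2 1.42.0, the replicate block, RLE scaling, no filter, the adjusted p alone and left-out libraries were the alternatives. The scripts were tested on simulated data, drawn at the spread of the blocked fit and without differences between replicate numbers. That test does not show how the fit without the block performs where replicate numbers differ. Deviations from group means of log2 CPM (prior count 2) correlated by 0.22 to 0.61 between libraries of the same replicate number and by -0.51 to 0.52 between those of different numbers and groups. The ranges overlapped, but every pair of the same number was positive, and the numbers were taken to pair the libraries. Levels per kb used exon lengths of GENCODE M21. The genes named were the 10 members, *Mapk3*, *Map2k1*, *Map2k2*, *Gm15551*, *Ucp1* and up to 4 called genes per list, and 1 further gene of the rule is not reported here. *Rras*, *Fgf21*, the overlapping genes and the markers named were chosen after their values were seen. Members and lists were chosen with earlier results of these data known. The limit of 3 counts covers counting error only.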

Additional observations from a re-analysis of the deposited data

How the results depend on the processing

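The count of 0 called members held in all 7 contrasts under the replicate block, RLE scaling, DESeq2, no filter on low counts, fits to only the groups compared (where a contrast used 2 of the 4), the adjusted p alone without the block, and each left-out library or replicate number. With the block and the adjusted p alone, added after the data were seen, it was 2 for the isoproterenol effect averaged over plasmids, 1 in empty vector cells and 0 in the other contrasts. When libraries or replicate numbers were left out of that fit, the count was 1 to 2 for isoproterenol (1 without replicate 3, where *Dusp1* was lost, or without replicate 4, where *Spry4* was lost) and 0 to 1 for the sgRNA effect, the 1 being *Dusp1*. Without the block, *Spry4* reached -0.49 with an adjusted p of 0.0394 when replicate 5 of the stimulated empty vector was left out, still within the bound of 0.5, and its other left-out fits had adjusted p of up to 0.517. For the averaged isoproterenol effect, 9 of 260 values of the members changed sign under the alternatives to the fit without the block, and 11 of 200 when libraries or replicate numbers were left out of the fit with it, and none of these had passed a test. More changed sign for the averaged sgRNA effect, 42 of 260 and 38 of 200. Without the block it was 32 of 260 for the interaction and 13 to 24 of 270 for the contrasts within a plasmid or treatment. With CPM from totals without ribosomal RNA genes, unscaled and added after the data were seen, the stimulated library was again higher in *Dusp1* and lower in *Spry4* in 8 of 8 pairs, and *Dusp1* was higher with the sgRNA in 7 of 8. On this scale *Spry1* was also lower in 8 of 8 isoproterenol pairs, against 7 of 8 with TMM scaling. *Spry2* was lower in 7 of 8, against 4 of 8, so these counts depended on the scaling. The block changed no other call of a member. The members with the fewest counts, *Dusp14* (8 to 45 per library), *Spry1* (18 to 50) and *Dusp5* (13 to 94), had the widest 95% intervals for isoproterenol with the block, but without it that of *Dusp6* (51 to 226 counts) was wider than those of *Dusp5* and *Spry1*.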
